A study of Mus musculus with 8 samples.

Results

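The genes described here encode the subunits, assembly chaperones and regulators of the proteasome. They were chosen by name, as every protein-coding feature of the deposited table whose symbol begins with Psma, Psmb, Psmc, Psmd, Psme, Psmf or Psmg, and 50 of 49584 features (21960 of them protein-coding) met this rule. One of them, Psmc3ip, is named alike but encodes a meiotic recombination factor. Its values are given apart, but it is counted among the 49 members tested. RNA was sequenced from crude mitochondria of mouse heart in 4 Tefm knockout and 4 control libraries, and TEFM is an elongation factor of the mitochondrial RNA polymerase. Knockout animals (titled L/L, cre, with the genotype Tefm -/-) carried loxP sites around an exon of Tefm and expressed cre from the promoter of muscle creatine kinase. This promoter works in cardiomyocytes and skeletal muscle fibres, so other cell types of the heart keep the gene. Controls (L/L, with the genotype Tefm +/+) carried the floxed alleles and are taken as animals without cre. No ages are given in the labels.

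The proteasome is the protease that removes ubiquitin-tagged proteins. Its 20S core is a barrel of stacked alpha and beta rings, and the catalytic subunits Psmb5, Psmb6 and Psmb7 sit in the beta rings. The 19S cap, built from a ring of ATPases and a set of non-ATPase subunits, recognises ubiquitin, unfolds the substrate and threads it into the core. Under interferon the catalytic subunits are replaced in new particles by Psmb8, Psmb9 and Psmb10, which form the immunoproteasome and alter the peptides that MHC class I molecules present. When proteasome capacity falls short, the transcription factor Nfe2l1 is cut loose from the endoplasmic reticulum and raises most subunit genes together, through antioxidant response elements that it binds with small Maf proteins. In heart muscle the proteasome takes part in the turnover of sarcomere proteins and of mitochondrial proteins that have not been imported.

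The promoters of 3 subunit genes are printed to show where letters matching the best-known element of this coordinated control lie and where they are not found. They are the 100 bases before the transcription start given by RefSeq (GRCm38.p6), 5′ to 3′ on the strand of the gene. Capitals mark matches to the core of the antioxidant response element.
Psmb5, chr14:54617996-54618095, minus strand: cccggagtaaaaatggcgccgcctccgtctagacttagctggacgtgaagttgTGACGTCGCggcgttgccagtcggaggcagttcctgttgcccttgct
Psmb6, chr11:70525257-70525356, plus strand: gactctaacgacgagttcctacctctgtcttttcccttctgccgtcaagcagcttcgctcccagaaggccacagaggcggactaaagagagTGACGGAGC
Psmd8, chr7:29180674-29180773, minus strand: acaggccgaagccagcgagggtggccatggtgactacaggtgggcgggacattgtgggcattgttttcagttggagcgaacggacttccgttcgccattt
Among the constitutive subunits, Psmb5 and Psmd8 showed the largest rises in the core and in the cap, and Psmb6 rose less. The element was searched as TGACNNNGC on both strands in windows from 250 bases before to 50 bases after the start. It was found in the windows of 6 of the 42 members that had one (14.3%), against 12.4% of all 32851 windows. Besides Psmb5 and Psmb6 these were Psmc6, Psmd12, Psmd9 and Psme4, of which Psmd9 did not pass the test and Psme4 was lower in knockouts. No match in the window of Psmd8 says only that these letters are not there.

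Library totals were 21108165 to 25393933 counts in knockouts and 26268804 to 27403415 in controls. Transcripts of mitochondrial DNA made up 38.7 to 59.3% of counts in knockouts and 72.3 to 74.0% in controls. Knockout replicate 1, at 59.3%, stood apart from the other knockouts, which reached at most 44.2%. Levels are therefore given in CPM, the count scaled to library size with the TMM factors of edgeR, which set the median of all genes near no change, and every fold change is relative to the other nuclear RNA in the preparation. Scaling to library totals gave all genes a median log2 fold change of 0.97, against -0.01 with TMM, and called 78.6% of genes higher and 2.68% lower. Tefm was at 6.86 ± 0.596 CPM in knockouts and 6.24 ± 0.639 CPM in controls (SD, n = 4 each), with a log2 fold change of 0.14 and an adjusted p of 0.324 in the quasi-likelihood test of edgeR. The count covers the whole gene and only an exon was removed, so it does not check the labels. In bulk RNA, fewer cells of a type and less RNA per cell cannot be told apart, and RNA of nuclear genes in crude mitochondria comes from what was isolated with them.

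Most proteasome genes were higher in knockout libraries, relative to the other nuclear RNA of the crude mitochondria. Of the 49 members tested, 35 were higher and 6 lower in edgeR's quasi-likelihood test (Benjamini-Hochberg adjusted p under 0.05 over 17891 genes), against 26.1% of all genes higher and 23.9% lower. Their median log2 fold change was 0.38, and that of all genes -0.01. In 32 members every knockout library lay above every control library, and in 4 every knockout library lay below, where 23.9% and 21.5% of all genes did so. A rise of at least 2-fold was called for 4 members, Psmd8, Psma8, Psmb10 and Psmb5, and for 7.32% of all genes. The shift was seen in each knockout library. Median deviations of the 49 members from the control mean were 0.53, 0.45, 0.32 and 0.34 on the log2 scale in replicates 1 to 4. The medians of all genes in the same libraries lay between -0.0025 and -0.00027. Those of the members in the controls, -0.01 to 0.01, are near 0 because the controls' own mean was subtracted. Without knockout replicate 1, 35 members were higher and 7 lower, among them Psmc3ip, which is not part of the proteasome (-0.49, edgeR adjusted p 0.030).

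**Figure D1:**
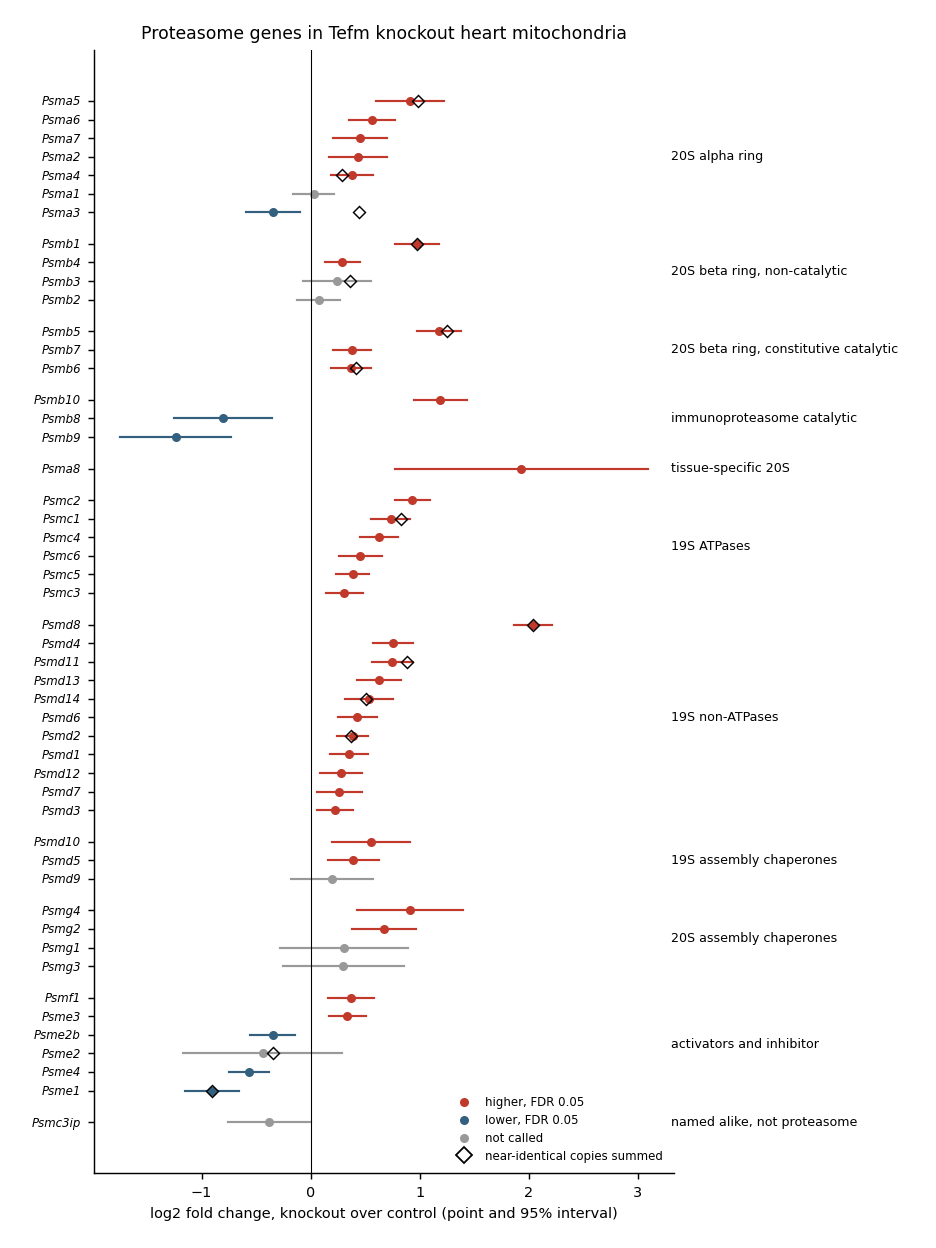
Log2 fold change of each tested proteasome gene, knockout over control, with its 95% interval, grouped by role and coloured by the edgeR call at an adjusted p of 0.05; open diamonds give the value after counts of near-identical copies are added. All 17 ATPase and non-ATPase subunits shown for the cap lie right of zero, whereas Psmb8, Psmb9, Psme1 and Psme4 lie left of it, and the diamond of Psma3 lies on the other side of zero from its point.

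All 17 subunits of the 19S cap with Psmc or Psmd symbols rose, against 26.1% of all genes called higher. Of the cap subunits under other names, Shfm1 rose (log2 fold change 0.32, edgeR adjusted p 0.031) and Adrm1, a ubiquitin receptor, did not pass the test (0.13, edgeR adjusted p 0.457). For the 17, the median log2 fold change was 0.46, with 0.54 for the 6 ATPases and 0.43 for the 11 non-ATPase subunits. In 15 of the 17 every knockout library lay above every control, where 23.9% of all genes did so. Psmd8, a subunit of the lid of the cap, had the largest log2 fold change of any member. It reached 86.4, 87.6, 84.0 and 73.3 CPM in knockout replicates 1 to 4, against 19.1, 19.3, 21.5 and 20.9 CPM in control replicates 1 to 4. The lowest knockout library was thus far above the highest control library. The log2 fold change was 2.04 (SE 0.08), a 4.10-fold rise with an adjusted p of 3.2e-10 in edgeR's test. Per kilobase of exon, the gene ranked 2 among the 50 members in knockouts, at 27.1 CPM per kilobase, and 13 in controls, at 6.61 CPM per kilobase. The gene lies on chromosome 7, 29174188 to 29180701, on the minus strand of GRCm38, and shares no exon bases with another gene.

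Other cap subunits rose by less than Psmd8. Psmd4, a ubiquitin receptor of the cap, was at 26.7 ± 2.92 CPM in knockouts and 15.8 ± 0.352 CPM in controls (log2 fold change 0.75, SE 0.09, edgeR adjusted p 6.0e-06). Psmd11, a lid subunit that helps join cap and core, was at 16.3 ± 1.49 and 9.72 ± 0.349 CPM (0.75, SE 0.09, edgeR adjusted p 8.8e-06). Among the ATPases, which unfold substrates, Psmc2 was at 19.5, 19.4, 19.6 and 20.3 CPM in knockouts and at 9.59, 10.4, 10.5 and 10.8 CPM in controls. Its libraries were tight in both groups, and the log2 fold change was 0.93 (SE 0.07, edgeR adjusted p 2.1e-07). Psmc1 followed with a log2 fold change of 0.73 and Psmc4 with 0.62, and Psmc3 had the smallest rise of the ring, 0.31 (SE 0.08). At the low end of the non-ATPase subunits were Psmd12, Psmd7 and Psmd3, with 0.28, 0.26 and 0.22. The libraries of Psmd7 and Psmd3 overlapped between the groups. Each of these 3 calls was lost when some single libraries were left out, with adjusted p up to 0.0666 for Psmd12, 0.102 for Psmd7 and 0.0729 for Psmd3. The remaining cap subunits, Psmd13, Psmd14, Psmd6, Psmd2, Psmd1, Psmc6 and Psmc5, rose by 0.35 to 0.63 on the log2 scale. Psmd14 is the deubiquitinase of the lid and Psmd2 a scaffold that docks ubiquitin carriers.

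In the 20S core, 10 of the 14 alpha and constitutive beta subunits rose, 1 fell and 3 did not pass the test, with a median log2 fold change of 0.38. The shares of all genes were 26.1% higher and 23.9% lower. The constitutive catalytic subunits all rose. Psmb5, which carries the chymotrypsin-like activity, was at 27.5, 27.4, 23.8 and 23.0 CPM in knockouts and at 11.5, 9.80, 12.6 and 11.2 CPM in controls. No knockout library came near the controls, and the log2 fold change was 1.18 (SE 0.09), a 2.26-fold rise with an edgeR adjusted p of 2.3e-07. Psmb6, with caspase-like activity, was at 25.1 ± 2.89 CPM in knockouts and 19.4 ± 0.637 CPM in controls (log2 fold change 0.37, edgeR adjusted p 0.0028). Psmb7, with trypsin-like activity, was at 17.0 ± 1.27 and 13.0 ± 0.569 CPM (0.38, edgeR adjusted p 0.0014). Of the genes printed above with a match to the letters of the antioxidant response element, Psmb5 thus changed more than Psmb6. Psmd8, without a match, changed more than either. Whether the element acts in these genes was not tested.

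Among the beta subunits without catalytic activity, Psmb1 was at 34.6 ± 4.96 CPM in knockouts and 17.6 ± 0.406 CPM in controls, a log2 fold change of 0.97 (SE 0.09, edgeR adjusted p 1.4e-06). Psmb4 rose by 0.29, while Psmb3 and Psmb2 did not pass the test, with log2 fold changes of 0.24 and 0.07 and 95% intervals of -0.07 to 0.56 and -0.12 to 0.27. In the alpha ring, which gates the entry to the core, Psma5 led with 0.91 (SE 0.15), at 4.67 ± 0.526 CPM in knockouts and 2.49 ± 0.350 CPM in controls. Psma6, Psma7, Psma2 and Psma4 rose by 0.57, 0.45, 0.44 and 0.38. Psma1 had 12.3, 12.4, 12.3 and 14.0 CPM in knockouts and 11.1, 13.6, 12.3 and 13.0 CPM in controls. Its groups overlapped, and the 95% interval of its log2 fold change was -0.16 to 0.22. Psma3 was the only core subunit called lower, at 4.85 ± 0.271 CPM in knockouts and 6.18 ± 0.769 CPM in controls (log2 fold change -0.35, edgeR adjusted p 0.023), and this call turned with the treatment of its copies, described further on. In the authors' deposited table its adjusted p was 0.0640. The thymus subunit Psmb11 was not tested, with 1 count in all, in knockout replicate 2. Psma8, an alpha subunit known from testis, had 16, 10, 13 and 13 counts in knockouts against 1, 4, 0 and 3 counts in controls. It was called higher (log2 fold change 1.93, SE 0.54, edgeR adjusted p 0.0086) on 60 counts in all.

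**Figure D2:**
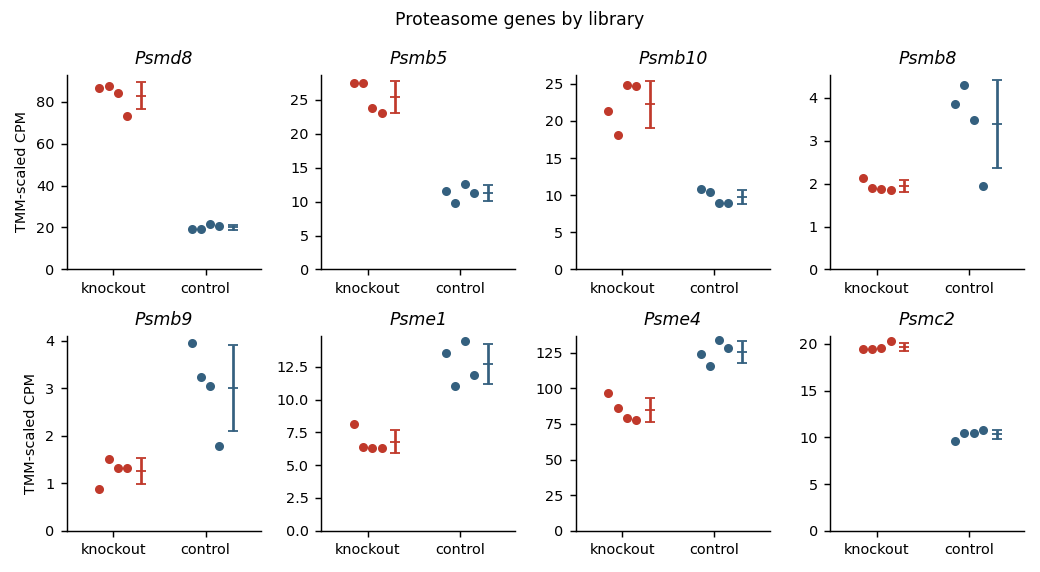
TMM-scaled CPM (vertical axis, from 0) of 8 proteasome genes in each library, knockout left and control right; points are libraries in the order of their replicate numbers, and bars give the mean and SD of 4 libraries. Psmd8, Psmb5, Psmb10 and Psmc2 are higher in every knockout library than in any control, Psme1, Psme4 and Psmb9 are lower in every one, and in Psmb8 the lowest control library, at 1.94 CPM, lies within the knockout range.

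The immunoproteasome genes did not move together. Psmb10, which replaces Psmb7, was at 21.3, 18.2, 24.8 and 24.7 CPM in knockouts and at 10.8, 10.4, 8.91 and 8.97 CPM in controls. Every knockout library was above every control, with a log2 fold change of 1.19 (SE 0.11), a 2.28-fold rise with an edgeR adjusted p of 1.1e-06. Psmb9, which replaces Psmb6, was at 0.879, 1.5, 1.33 and 1.32 CPM in knockouts and at 3.95, 3.25, 3.04 and 1.79 CPM in controls. It had the lowest log2 fold change of any member, -1.24 (SE 0.24, edgeR adjusted p 0.00065), and its groups did not overlap. Psmb8, which replaces Psmb5, was at 2.14, 1.91, 1.88 and 1.86 CPM in knockouts and at 3.85, 4.30, 3.49 and 1.94 CPM in controls. Control replicate 4 lay among the knockouts, and the log2 fold change was -0.80 (SE 0.21, edgeR adjusted p 0.0056). Control replicate 4 was the lowest control for both Psmb8 and Psmb9. Per kilobase of exon, Psmb10 stood at 13.1 CPM in knockouts and 5.73 CPM in controls, well above Psmb8 at 0.576 and 1.0 CPM and Psmb9 at 0.344 and 0.822 CPM. The exons of all annotated transcripts were merged for this, to 1.705 kb for Psmb10, 3.381 kb for Psmb8 and 3.66 kb for Psmb9. The size of the gap therefore depends on the annotation. Psmb8 and Psmb9 are neighbours in the MHC locus on chromosome 17, at 34197721 to 34201454 and 34181987 to 34187764, and Psmb10 lies on chromosome 8, at 105935735 to 105938444. The sources do not state the strand of the libraries. Reads in the 5.79% of exon bases that Psmb9 shares with Tap1 on the opposite strand can therefore not be separated, nor can those in the 14.7% that Psmb8 shares with its antisense gene Gm20496.

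Each inducible subunit was set against the constitutive subunit it replaces within the same library, which removes the scaling from the comparison. Counts of Psmb8 were 7.78, 6.96, 7.89 and 8.07% of those of Psmb5 in knockouts, against 33.5, 43.9, 27.8 and 17.3% in controls. The mean log2 ratio was -3.70 ± 0.0952 in knockouts and -1.78 ± 0.560 in controls (SD, n = 4 each), a difference of -1.92. Counts of Psmb9 were 3.09, 5.73, 6.09 and 5.52% of those of Psmb6 in knockouts, against 20.8, 16.2, 15.3 and 9.55% in controls, a difference of -1.59 in mean log2 ratio. Counts of Psmb10 were 119.7, 100.2, 161 and 149% of those of Psmb7 in knockouts, against 79.8, 82.5, 71.2 and 66.4% in controls, a difference of 0.80. For each of the 3 ratios the groups did not overlap, and the two-sided exact permutation p was 0.0286, the smallest that 70 relabelings can give, and 0.0286 after Benjamini-Hochberg adjustment over the 3. These ratios are not corrected for length, so their change between groups is read and their height is not. Both subunits enter each change. The log2 fold changes were -0.80 for Psmb8 and 1.18 for Psmb5, -1.24 for Psmb9 and 0.37 for Psmb6, and 1.19 for Psmb10 and 0.38 for Psmb7. With near-identical copies summed, described further on, the differences were -1.99, -1.64 and 0.80 in the same order. Psmb7 shares exon bases with Nek6 on the opposite strand.

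**Figure D3:**
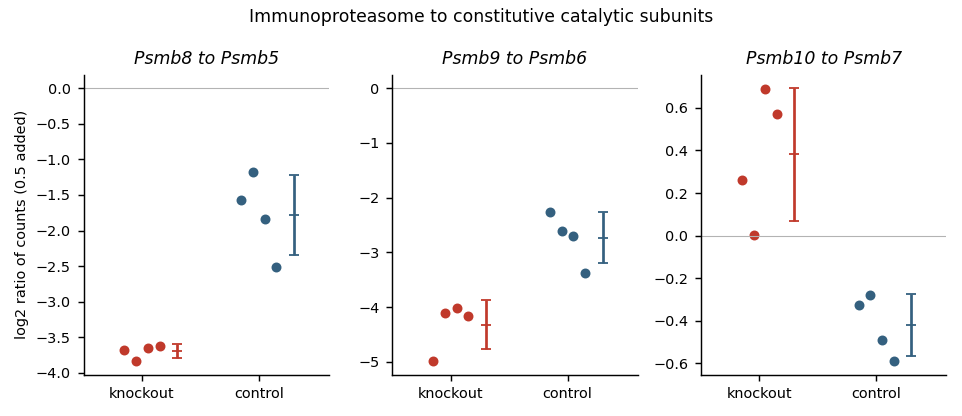
Log2 ratio of counts (vertical axis, 0.5 added to each count) of Psmb8 to Psmb5, Psmb9 to Psmb6 and Psmb10 to Psmb7 in each library, knockout left and control right, with the mean and SD of 4 libraries. The first and second ratio lie lower in all knockout libraries than in any control, and the third lies higher.

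Of the 6 genes for activators and the inhibitor of the core, 3 fell, 2 rose and 1 did not pass the test. Among all genes 23.9% were lower and 26.1% higher, so the 2 that rose are near that share. Psme1, which with Psme2 forms the interferon-inducible activator PA28, was at 8.11, 6.43, 6.35 and 6.33 CPM in knockouts and at 13.5, 11.0, 14.4 and 11.9 CPM in controls. All knockouts were lower, with a log2 fold change of -0.91 (SE 0.11, edgeR adjusted p 1.7e-05). Psme2 did not pass the test (-0.44, edgeR adjusted p 0.299), with 10 to 24 counts per library. Psme2b, a 99.4% identical gene without introns, held 3161 of the counts against 144 for Psme2. It was called lower (-0.35, SE 0.10, edgeR adjusted p 0.0085), and the sum of the pair and a further copy was at -0.34 (edgeR adjusted p 0.0115). Psme4, the activator PA200, was at 96.6, 86.4, 78.9 and 78.1 CPM in knockouts and at 124, 116, 134 and 129 CPM in controls. It fell by 0.56 on the log2 scale (SE 0.08, edgeR adjusted p 7.4e-05), and no library crossed over. Psme3, the nuclear activator PA28 gamma, rose to 24.1 ± 1.76 CPM in knockouts, against 19.1 ± 1.06 CPM in controls (0.34, edgeR adjusted p 0.0024). Psmf1, an inhibitor of the core in vitro, rose by 0.37 (edgeR adjusted p 0.0068).

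Of the 7 assembly chaperones, 4 rose and 3 did not pass the test, against 26.1% of all genes called higher. Of the chaperones of the core, Psmg4 was at 2.20 ± 0.518 CPM in knockouts and 1.17 ± 0.250 CPM in controls (log2 fold change 0.91, SE 0.23, edgeR adjusted p 0.0042). Psmg2 was at 5.22 ± 0.667 and 3.28 ± 0.394 CPM (0.67, SE 0.14, edgeR adjusted p 0.0011). Psmg1 and Psmg3 were at 0.31 and 0.30 and did not pass the test. For the cap, Psmd10, also known as gankyrin, had a log2 fold change of 0.55 and Psmd5 of 0.39 (edgeR adjusted p 0.013 and 0.0088). Psmd9 was at 0.19 (95% interval -0.18 to 0.57). Psmc3ip, the member that is not part of the proteasome, was at 1.89 ± 0.362 CPM in knockouts and 2.45 ± 0.238 CPM in controls (-0.38, edgeR adjusted p 0.089).

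Several of these genes have processed copies elsewhere in the genome, and reads in stretches of the same sequence can be assigned to either. Identity ran from 90.3% (Gm7776 to Psme1) to 100% (Gm13835 to Psma3), so this holds less for the more distant copies. Copies were taken as pseudogenes, with A730017L22Rik and Psme2b, at least 90% identical to a member over at least 200 bases. They held counts for 15 members, and for 9 of them the copies held more counts than the member itself. Genes that overlap a member, such as Nek6, Tap1, Mlx and Sirt3, also share such stretches with Psmb7, Psmb9, Psmc3ip and Psmd13, but they were not counted as copies or summed. Psma3 is the case where this turned the direction. The stretches below run across the same place in the spliced transcript of Psma3 and in its copies Gm13835 and Gm4742 (GRCm38), and capitals mark bases that differ from Psma3.
Psma3: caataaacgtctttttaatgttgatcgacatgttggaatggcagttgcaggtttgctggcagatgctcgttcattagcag
Gm13835: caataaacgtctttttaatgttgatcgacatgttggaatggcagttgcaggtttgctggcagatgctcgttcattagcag
Gm4742: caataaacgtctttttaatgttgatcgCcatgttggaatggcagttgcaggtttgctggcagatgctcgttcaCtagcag
The stretch has 40 bases on each side of an exon junction of Psma3. In the genome it is therefore unbroken in the copies but not in Psma3. By sequence alone, a read inside this stretch cannot be given to Psma3 or Gm13835. How the junction bore on the assignment of reads was not tested. Psma3 held 1088 counts in all and Gm13835, on chromosome 6, held 6832. Gm13835 was at 38.3 ± 2.15 CPM in knockouts and 26.0 ± 1.90 CPM in controls (log2 fold change 0.56, SE 0.08). Summed over Psma3 and its copies, knockouts had 53.0, 50.8, 47.2 and 48.4 CPM and controls 37.0, 33.7, 39.7 and 36.1 CPM. The log2 fold change was then 0.44 (edgeR adjusted p 0.00018), with every knockout library above every control. The direction of Psma3 on its own counts is therefore uncertain.

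For several other members the copy had a close value. Psmd8 and its copy Gm14013 had log2 fold changes of 2.04 and 2.08, Psmb5 and Gm3375 of 1.18 and 1.31, and Psme1 and Gm7776 of -0.91 and -0.89. For Psmb3, at 0.24, the copies Gm5356 and Gm4950 were at 0.71 and 0.41, whereas the sparse copy Gm14227 was at -0.47 and not called. A copy that shares reads with its member is no independent measurement of it. With copies summed, 37 members were higher and 5 lower at an adjusted p under 0.05, beside 26.1% and 23.9% of all genes under that counting. Psme2b, called lower on its own, was then part of Psme2 and no longer a separate member. Psmb3 then passed the test at 0.36 (edgeR adjusted p 0.0045). The levels per kilobase of members with copies are uncertain for the same reason.

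**Figure D4:**
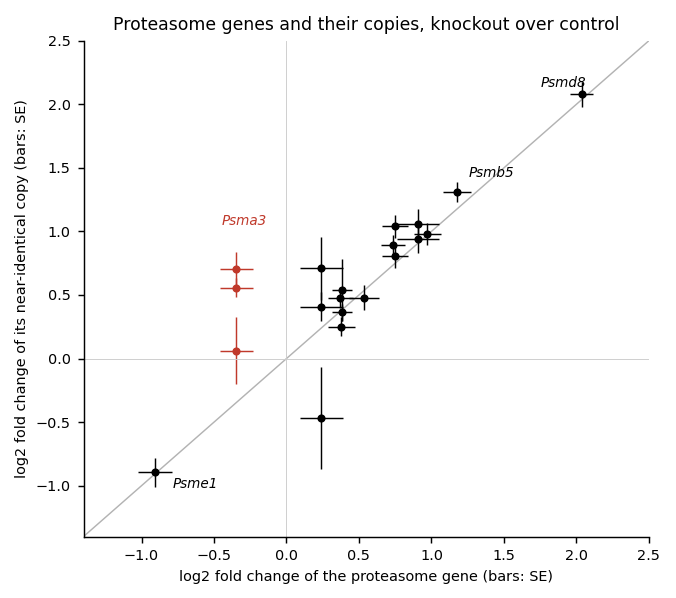
Log2 fold change, knockout over control, of each near-identical copy (vertical axis) against that of its proteasome gene (horizontal axis), with bars of 1 SE and the line of equality. Psmd8, Psmb5 and Psme1 lie near the line with their copies, and the 3 copies of Psma3, in red, lie at or above zero while the gene lies at -0.35.

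Genes that act with the proteasome but carry other names were taken from lists, which were chosen with earlier results of these data known. The counts of each list stand beside 26.1% of all genes called higher and 23.9% called lower. Of the 7 genes of the transcription factor route, 6 rose and 1 fell, with a median log2 fold change of 0.45. Nfe2l1 was at 382, 380, 360 and 352 CPM in knockouts and at 275, 275, 265 and 262 CPM in controls. It was higher in all knockout libraries (log2 fold change 0.45, SE 0.07, edgeR adjusted p 0.00014). The small Maf genes Mafk, Maff and Mafg, whose products pair with Nfe2l1, rose by 1.88, 1.65 and 0.76. Mafk was at 53.1, 69.7, 81.6 and 63.0 CPM in knockouts, against 15.7 to 19.8 CPM in controls. Ddi2, the protease that cuts Nfe2l1, was at 37.8 ± 1.84 CPM in knockouts and 45.7 ± 5.87 CPM in controls (-0.27, edgeR adjusted p 0.0205). Its libraries overlapped and the call was lost without control 3, control 4, knockout 3 or knockout 4, with adjusted p up to 0.0824.

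Of the 15 genes for ubiquitin, its activating enzymes and shuttle factors, 12 rose and 3 did not pass the test, with a median of 0.41. Sqstm1, a ubiquitin-binding receptor of autophagy, was at 475, 646, 558 and 575 CPM in knockouts and at 101, 103, 95.3 and 92.4 CPM in controls, a log2 fold change of 2.52 (SE 0.10, edgeR adjusted p 3.2e-10). Nploc4, a cofactor of the unfoldase Vcp, rose by 0.98 and Rad23b, a shuttle to the cap, by 0.74. Of the 10 partners of the particle itself, 6 rose and 4 did not pass the test, with a median of 0.26. Zfand2a, a stress-induced partner of the cap, rose by 0.65, and the deubiquitinases Usp14 and Uchl5 by 0.43 and 0.82.

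The list of peptide supply to MHC class I and interferon signalling went the other way, with all 14 genes lower and a median log2 fold change of -0.92. Among all genes, 23.9% were called lower, but this list too was chosen with earlier results of these data known. Gbp3, an interferon-induced GTPase, was at 1.76, 2.60, 3.26 and 2.71 CPM in knockouts and at 9.17, 8.65, 6.97 and 5.68 CPM in controls (-1.54, SE 0.19, edgeR adjusted p 1.1e-05). Gbp2 was at -1.37, and Tap2, a subunit of the peptide transporter, at -0.91 with 5.27 ± 0.640 CPM in knockouts and 9.93 ± 0.873 CPM in controls. In 11 of the 14 every knockout library lay below every control, where 21.5% of all genes did so. Nlrc5, Tap1 and Irf1 overlapped between the groups, and control replicate 4 was the lowest control for each, at 2.54, 4.44 and 8.52 CPM, as it was for Psmb8 and Psmb9. Psmb8, Psmb9 and Psme1 were lower with this list and Psmb10 was not.

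**Figure D5:**
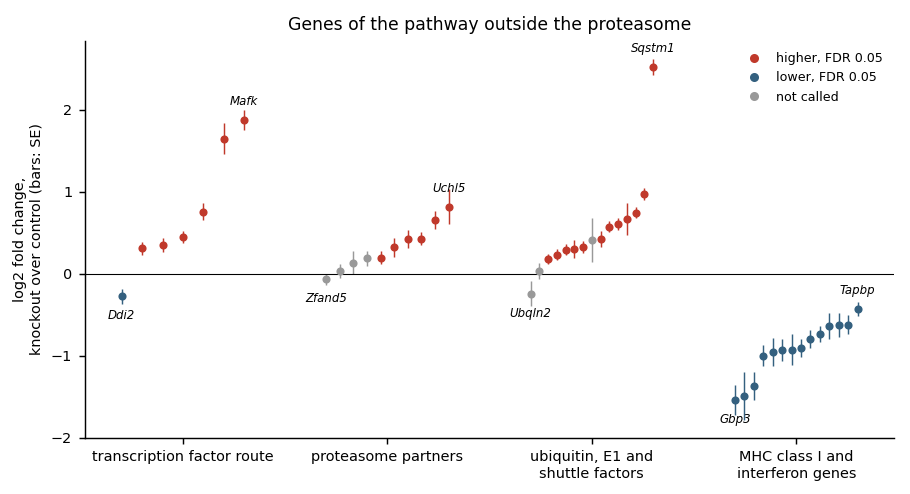
Log2 fold change, knockout over control (vertical axis, bars of 1 SE), of genes outside the proteasome in 4 lists, coloured by the edgeR call at an adjusted p of 0.05. The 14 genes of MHC class I and interferon lie below zero, while 6 of 7 genes of the transcription factor route, 6 of 10 partners and 12 of 15 ubiquitin and shuttle genes were called higher.

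Cell type markers are set beside 26.1% of all genes called higher and 23.9% called lower. The 7 tested leukocyte markers included 3 lower and 4 not called, and the summed level of the 9 markers was 66.0 to 102 CPM in knockouts and 92.4 to 136 CPM in controls. The 8 cardiomyocyte markers summed to 37513 to 48400 CPM in knockouts and 61253 to 64925 CPM in controls, with 6 lower, 1 higher and 1 not called. Endothelial markers summed to 287 to 322 and 340 to 358 CPM (3 of 5 lower), and fibroblast markers to 221 to 405 and 240 to 253 CPM (2 of 6 higher). Smooth muscle and pericyte markers summed to 432 to 483 and 492 to 521 CPM (1 of 5 lower), and none of 5 erythroid markers was called, at 172 to 905 and 182 to 457 CPM. No marker was at 0 in all libraries. The part of the marker levels in the values of the proteasome genes was not tested.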

How the data were processed

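Total RNA of crude heart mitochondria was sequenced from Illumina TruSeq libraries on a MiSeq, as the labels' protocols state. The authors deposited raw counts per gene, which were used, and a table of their own comparison, used for the features and their names and for 1 adjusted p. That deposited table holds p-values, a statistic (score), the log2 fold change and its error, and an average signal per gene. The submitters' processing notes name DESeq2 1.14.1, R 3.3.2, featureCounts, Bowtie2, bedtools, SAMtools 1.3.1 and the build mm10, without role or order. Removal of rRNA and the strand of the libraries are not stated. Library totals were 21108165 to 27403415 counts. Replicates are taken as separate mice, as the series text describes them.

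Counts were tested over all genes with edgeR 4.0.16 (quasi-likelihood, TMM, filterByExpr with a minimum count of 10, Benjamini-Hochberg at 0.05) in R 4.3.3, after the steps were tested on simulated data. All simulated libraries had the control profile apart from a set of changed genes. They therefore did not test the scaling under the shift in mitochondrial transcripts. Ratios had 0.5 added to each count and a two-sided exact permutation test. The alternatives were RLE factors, library totals, DESeq2 1.42.0, no filter, nuclear genes alone, the replicate number as a block, 5 added in the ratios, and leaving out each library. Summing near-identical copies (BLAST 2.17.0) was added after seeing the data. The members and lists were chosen with earlier results of these data known. Named were Psmb5 to Psmb10, up to 3 genes of each class by smallest p, the extremes, called members against their class, the untested member, up to 3 called genes of each list, Nfe2l1 and Ddi2; other members were named to account for each. Gene positions and lengths (merged exons of all annotated transcripts) are from GENCODE for GRCm38, and sequences of promoters from RefSeq.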

Additional observations from a re-analysis of the deposited data

Results flagged for a closer look

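Among 104 groups of 4 libraries examined for a library far from the other 3 (chance flags about 1 in 20), 7 were flagged. Knockout replicate 1 was far from the other knockouts in 3 of them: Psmb1 was at 42.0 CPM there and at 31.4 to 33.0 CPM in the others, Psme1 at 8.11 CPM against 6.33 to 6.43 CPM, and the log2 count ratio of Psmb9 to Psmb6 at -4.99 against -4.16 to -4.02. Knockout replicate 4 was the far library for Psma1, at 14.0 CPM against 12.3 to 12.4 CPM in the other knockouts, for Psmc2, at 20.3 CPM against 19.4 to 19.6 CPM, and for Psmc4, at 19.8 CPM against 22.2 to 22.3 CPM. Control replicate 4 was far from the other controls for Psmc4, at 15.5 CPM against 13.4 to 13.6 CPM.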

How the results depend on the processing

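The number of members higher was 35 with RLE factors, DESeq2 and no filter, and 34 with nuclear genes alone. Of the members and named list genes, 62 were tested with nuclear genes alone and 63 with RLE factors. All of these kept their direction and call. The number lower was 5 or 6 with RLE factors, DESeq2, no filter and nuclear genes alone. When each library was left out in turn, 32 to 35 members were higher and 5 to 7 lower. With library totals, 45 members were higher, beside 78.6% of all genes, and 0 lower, beside 2.68%. Same-numbered libraries did not deviate together (correlations -0.0136 to 0.0497), and the fit with the replicate block gave 35 higher and 6 lower and changed no call of a named gene. Library totals, which raise the median of all genes, reversed the log2 fold changes of Psma3 to 0.66, Psmb8 to 0.18, Psmc3ip to 0.59, Psme1 to 0.069, Psme2 to 0.51, Psme2b to 0.63, Psme4 to 0.41, Tap2 to 0.093 and Ddi2 to 0.72, and Psmb9 (-0.23, adjusted p 0.455) and Gbp2 (-0.39, adjusted p 0.0821) lost their calls. Summed copies reversed Psma3 to 0.44. Psma1, not called, ranged from -0.027 (without control replicate 1) to 0.067 (without control replicate 2) and was -0.017 without knockout replicate 4. Psma3 lost its call in DESeq2 (adjusted p 0.0642), with no filter (0.0774) and without control replicates 1 or 3. With a library left out, the ratios ranged from -2.24 to -1.82 for Psmb8 to Psmb5, -1.86 to -1.43 for Psmb9 to Psmb6 and 0.70 to 0.93 for Psmb10 to Psmb7, each at an exact permutation p of 0.0571, the smallest that 35 relabelings allow. Psmc3ip, not called, passed the test without knockout replicate 1 (-0.49). Psma8, with few counts, is limited by depth. Psme2 held 144 counts beside 3161 for its near-identical copy Psme2b. With copies summed, Psme2 passed the test (-0.34, edgeR adjusted p 0.0115).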
